A study of Mus musculus with 7 samples.

Results

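The CC chemokine ligands described here are 10 genes, Ccl2, Ccl3, Ccl4, Ccl5, Ccl6, Ccl7, Ccl9, Ccl12, Ccl22 and Ccl24, taken by symbol from a deposited expression table of 16047 genes. All 10 were in the table, and all 10 averaged 1 RPKM or more over the libraries, as did 9594 genes in all. RPKM is a read number scaled by transcript length and by the reads of the library. Neutrophils were sorted from livers of male mice, labelled C57BL/6 and 8 to 12 weeks old, at 24 h after acetaminophen-induced liver injury (AILI), which was set by 300 mg/kg of acetaminophen after 12 h of fasting. The groups were 4 livers of mice given PBS (replicates 5 to 8) and 3 livers of mice given MC-21 (replicates 2 to 4). MC-21 is an antibody against CCR2 that depletes the Ly6C-high monocytes that enter the injured liver. It was injected as 400 µL of conditioned medium at 29 µg/mL from 12 h before acetaminophen and every 24 h, while the control mice received PBS and no control antibody is named. Both groups had liver injury, so no uninjured liver was compared. The sort took 50000 cells per liver that were positive for CD11b and Ly6G, low for Ly6C and negative for CX3CR1-GFP, a reporter that the labelled strain name does not include.

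CC chemokines are small secreted proteins named for a pair of neighbouring cysteines near their amino terminus. They bind receptors of the CCR family on leukocytes and draw these cells toward the source. Ccl2, Ccl7 and Ccl12 are the ligands of CCR2, the receptor by which monocytes leave the bone marrow and enter tissue. Ccl3, Ccl5, Ccl6 and Ccl9 act on CCR1 of monocytes and macrophages, Ccl4 attracts monocytes and T cells, Ccl24 acts on CCR3 of eosinophils, and Ccl22 acts on CCR4 of T cells. Neutrophils are themselves a source of several of these ligands in inflamed tissue.

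The genes carry the family's name in their coding sequence. Of the 10 members, 8 lie on chromosome 11 of mm9, the build of the deposited table, while Ccl22 is on chromosome 8 and Ccl24 on chromosome 5. Ccl2, Ccl7 and Ccl12 follow each other among the members, with gaps of 8.26 and 54.3 kb, and Ccl5, Ccl9, Ccl6, Ccl3 and Ccl4 form a second run, with a gap of 13.2 kb between Ccl3 and Ccl4 and one of 9.24 kb between Ccl9 and Ccl6. Ccl2 spans chr11:81849073-81850955 and Ccl4 chr11:83476086-83478185, both on the plus strand. Ccl3 spans chr11:83461346-83462857, Ccl6 chr11:83401384-83406589 and Ccl9 chr11:83386421-83392138, all on the minus strand. The 30 bases around the cysteine pair are given for Ccl6 and Ccl9, read from the mm9 annotation in the coding direction with the codons of the pair in capitals, because the results below set these neighbours side by side.
Ccl6: acttcttcagacTGCTGCttctcttatgcc
Ccl9: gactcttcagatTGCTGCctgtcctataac
In this window 21 of 30 bases were identical between Ccl6 and Ccl9. Over the whole protein-coding transcripts, no run of 50 bases was shared by 9 of the members with any other protein-coding gene. Noncoding transcripts were not searched. Ccl9 was the exception, with 48 of its 2989 runs also present in other genes. Gm17268 overlaps Ccl2 and E230016K23Rik overlaps Ccl6 on the opposite strand, and whether the counting used strand is not given in the sources used here, so that reads of these partners cannot be told apart.

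The libraries were 3′ RNA-seq libraries, and the authors deposited RPKM. Low RPKM values moved in steps of 1 read, from which 1 RPKM in a transcript of 1 kb was estimated at 2.66 to 3.96 reads in PBS libraries and 1.59 to 3.57 reads in MC-21 libraries, with MC-21 replicate 3 the shallowest. The 12 neutrophil markers summed to 18010 to 30450 RPKM in PBS and 27340 to 40760 RPKM in MC-21 libraries, and the groups overlapped. The largest was S100a9, between 12270 and 25040 RPKM. S100a8, Csf3r and Cxcr2 were also present in every library, while Mpo stayed at or below 0.198 RPKM. Of the 11 that averaged 1 RPKM or more, 5 had a lower mean in MC-21 libraries. S100a8 averaged 3167 RPKM in PBS and 5793 RPKM in MC-21 libraries, and Camp 30.0 and 7.26 RPKM, each with overlap. The libraries also held transcripts of other cells, since 6 endothelial markers summed to 874 to 2149 RPKM in PBS libraries and 930 to 1921 RPKM in MC-21 libraries. Markers of monocytes differed with the treatment, with a sum over 8 markers of 121 to 176 RPKM in PBS libraries and 76.8 to 96.0 RPKM in MC-21 libraries. Most of this sum was Csf1r (41.5 to 79.7 RPKM in PBS and 32.9 to 49.1 RPKM in MC-21 libraries) and Ly6c2 (35.9 to 60.1 and 39.2 to 44.0 RPKM). Each of these 2 genes overlapped between the groups. PBS replicate 6 had the highest value of its group for 6 of the 10 ligands, and MC-21 replicate 3 the lowest of its group for 5. Of the 7 libraries, PBS replicate 6 had the lowest neutrophil marker sum (18010 RPKM). Its sums were the highest for hepatocytes (354 RPKM), macrophages and Kupffer cells (141 RPKM), B cells (29.9 RPKM), and eosinophils, basophils and mast cells (21.8 RPKM). It was neither highest nor lowest for the other marker lists. The part of such cells in its ligand values was not tested.

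The levels of the 10 ligands ranged from among the most abundant transcripts of these cells to the scarce. Ccl3, Ccl4, Ccl6 and Ccl2 together made up 90.3 to 96.9% of the summed RPKM of the 10 members, a sum that lay between 1935 and 2936 RPKM in PBS libraries and between 2592 and 3997 RPKM in MC-21 libraries. Among all genes of a library, Ccl3 ranked between 77 and 184, Ccl4 between 70 and 240, Ccl6 between 79 and 173, and Ccl2 between 56 and 645, while Ccl12 ranked between 5195 and 9042 and Ccl22 between 7501 and 11545. The order of the means in PBS neutrophils was Ccl6 (681 ± 189 RPKM, SD, n = 4), Ccl3 (610 ± 180), Ccl4 (598 ± 212) and Ccl2 (306 ± 140). The ranges of each of these neighbours overlapped. In MC-21 neutrophils the order was Ccl3 (901 ± 150 RPKM, SD, n = 3), Ccl4 (899 ± 215), Ccl2 (778 ± 470) and Ccl6 (716 ± 71.9), again with overlapping ranges. The most abundant member was Ccl6 in 2 PBS libraries, Ccl3 in 1 and Ccl4 in 1, while it was Ccl2, Ccl3 and Ccl4 in the MC-21 libraries. Below these 4 ligands came a step, since Ccl5 stayed lower than each of them in all 7 libraries. Ccl7, Ccl9 and Ccl24 followed with means between 6.48 and 38.7 RPKM, and Ccl12 and Ccl22 were lowest with means between 0.980 and 3.07 RPKM. RPKM divides by transcript length, which a 3′ library does not sample evenly, so that the order in reads can differ. Ccl6 had the most estimated reads of the members in each of the 7 libraries, 1673 to 4013, and Ccl3 had 890 to 2627.

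**Figure D1:**
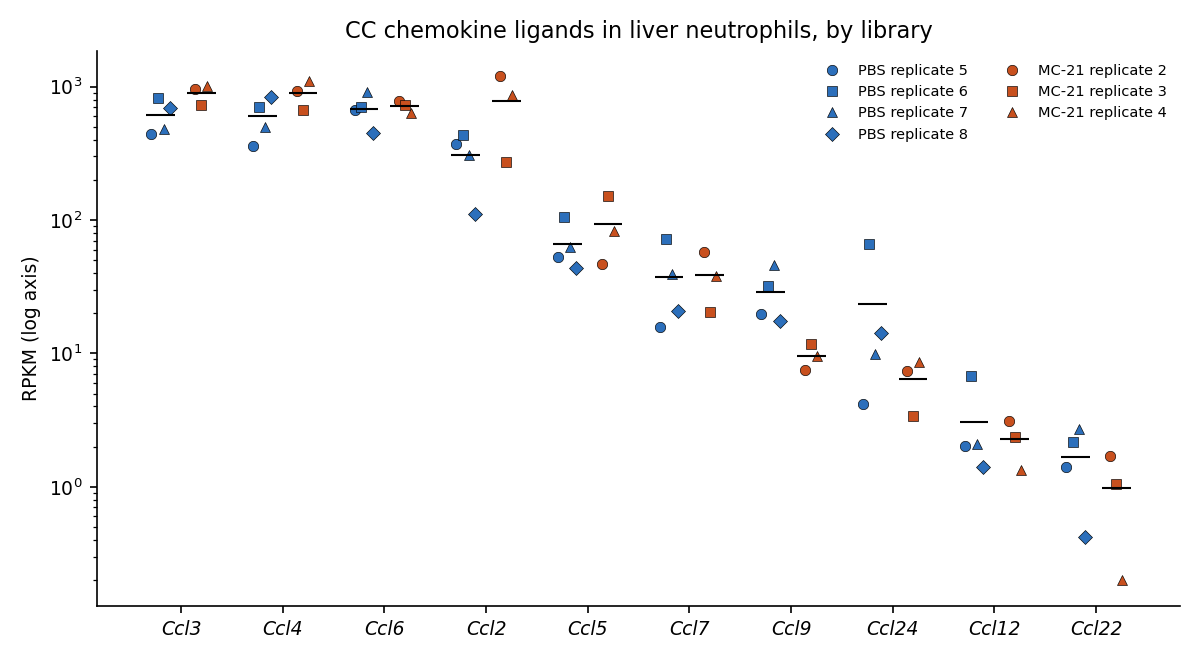
RPKM of the 10 CC ligands on a log axis in each of the 4 PBS (blue) and 3 MC-21 (orange) libraries, with horizontal bars for the group means. Ccl3, Ccl4, Ccl6 and Ccl2 stand above the other 6, and Ccl9 is the one ligand whose groups do not overlap.

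The comparison of MC-21 with PBS asks whether neutrophils express these ligands differently when the Ly6C-high monocytes are depleted. None of the members passed the test, with 0 of 10 at an adjusted p under 0.05 in limma, where 0.625% of all 9594 genes passed (0.427% lower and 0.198% higher). At an unadjusted p under 0.05 limma gave 3 of 10 members, Ccl2 and Ccl3 with higher and Ccl9 with lower means in MC-21 neutrophils, against 14.7% of all genes. By direction, 3.59% of all genes reached this level with a higher and 11.2% with a lower mean. With at least a 2-fold difference besides, 2 members remained, Ccl2 and Ccl9, against 2.7% of all genes. The unpaired, unmoderated test on RPKM, the kind of test the study used, gave 0 members at an unadjusted and 0 at an adjusted p under 0.05. The difference, MC-21 minus PBS on log2(RPKM + 1), was above 0 for 6 members and below 0 for 4, where 69.4% of all genes were below 0. The median difference was 0.15 over the members and -0.15 over all genes tested, so that the middle of the tested genes lay lower in the MC-21 libraries. The summed RPKM of all genes was not lower there, with 481900 to 502000 RPKM in PBS and 495900 to 504900 RPKM in MC-21 libraries.

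**Figure D2:**
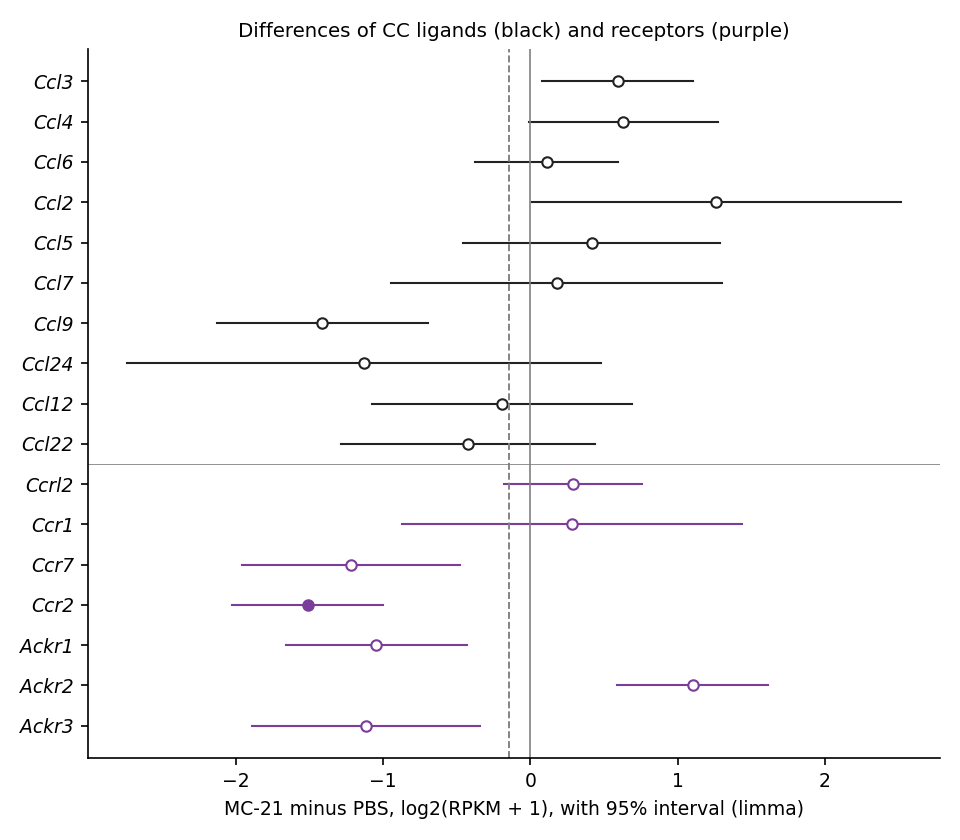
Difference, MC-21 minus PBS, on log2(RPKM + 1) with its 95% interval from limma for the 10 ligands and 7 receptors, with a dashed line at the median of all genes tested, -0.15. A filled point marks an adjusted p under 0.05, which Ccr2 reached and none of the ligands did.

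Among the ligands of CCR2, Ccl2 was the abundant one and the most variable of the 4 leading members, with a 10.8-fold range over the 7 libraries. Ccl2, also known as MCP-1, had 371, 435, 307 and 111 RPKM in PBS replicates 5 to 8, and 1201, 273 and 861 RPKM in MC-21 replicates 2 to 4. The groups overlapped, because MC-21 replicate 3 lay below 3 of the 4 PBS libraries while the other MC-21 libraries lay above all of them. The difference was 1.26 on the log2 scale (standard error 0.56, 95% interval 0.01 to 2.52, adjusted p = 0.336 from limma). It was 1.89 without MC-21 replicate 3 and 0.83 without MC-21 replicate 2, and neither passed the test. Ccl2 rested on an estimated 353 reads in MC-21 replicate 3 and 3488 in MC-21 replicate 2.

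Ccl7, or MCP-3, had 15.8, 72.5, 39.5 and 20.9 RPKM in PBS replicates 5 to 8, and 57.5, 20.5 and 38.3 RPKM in MC-21 replicates 2 to 4. The MC-21 values lay inside the PBS range. The difference was 0.18 (standard error 0.50, 95% interval -0.94 to 1.30, adjusted p = 0.894 from limma). Ccl12, or MCP-5, had 2.02, 6.72, 2.10 and 1.41 RPKM in PBS libraries and 3.13, 2.34 and 1.34 RPKM in MC-21 libraries. These values rest on an estimated 2 to 12 reads per library, and the groups overlapped. Its difference was -0.19 (95% interval -1.07 to 0.69, adjusted p = 0.851 from limma). Ccl2 exceeded Ccl7 and Ccl12 in all 7 libraries, with a log2 ratio of Ccl7 to Ccl2 between -4.47 and -2.36 and of Ccl12 to Ccl2 between -8.52 and -5.54.

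Ccl3 and Ccl4, with levels that overlapped those of Ccl6, had similar profiles over the libraries. Ccl3, or MIP-1 alpha, had 440, 821, 483 and 697 RPKM in PBS replicates 5 to 8, and 960, 730 and 1012 RPKM in MC-21 replicates 2 to 4. MC-21 replicates 2 and 4 lay above all PBS libraries, and MC-21 replicate 3 lay below PBS replicate 6. The difference was 0.59 (standard error 0.23, 95% interval 0.08 to 1.11, adjusted p = 0.285 from limma). Ccl4, or MIP-1 beta, had 356, 698, 501 and 838 RPKM in PBS libraries and 932, 670 and 1096 RPKM in MC-21 libraries. The picture was the same, with MC-21 replicate 3 inside the PBS range and the other MC-21 libraries above it. The difference of Ccl4 was 0.63 (standard error 0.29, 95% interval -0.01 to 1.27, adjusted p = 0.348 from limma).

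Within a library Ccl3 and Ccl4 were close to equal in RPKM. The log2 ratio of Ccl4 to Ccl3 lay between -0.31 and 0.27 over the 7 libraries, while each gene alone spanned a 2.30-fold (Ccl3) and 3.08-fold (Ccl4) range. The ratio averaged -0.05 ± 0.26 (SD, n = 4) in PBS libraries and -0.02 ± 0.12 (SD, n = 3) in MC-21 libraries, a difference of 0.04 (two-sided exact permutation test over 35 splits, p = 0.800). Of the 45 pairs of members, Ccl3 and Ccl4 had the most similar profiles, with a root mean square difference of 0.19 between their centred log2(RPKM + 1) profiles over the 7 libraries. The next pair, Ccl6 and Ccl22, had 0.38, which is more than the 0.29 by which Ccl6 varied about its own mean. Ccl22 rests on an estimated 1 to 13 reads per library. Ccl2 moved apart from both, with a log2 ratio of Ccl2 to Ccl3 that ranged from -2.64 to 0.32. The ratios other than Ccl4 to Ccl3 were chosen after the members' values were seen.

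**Figure D3:**
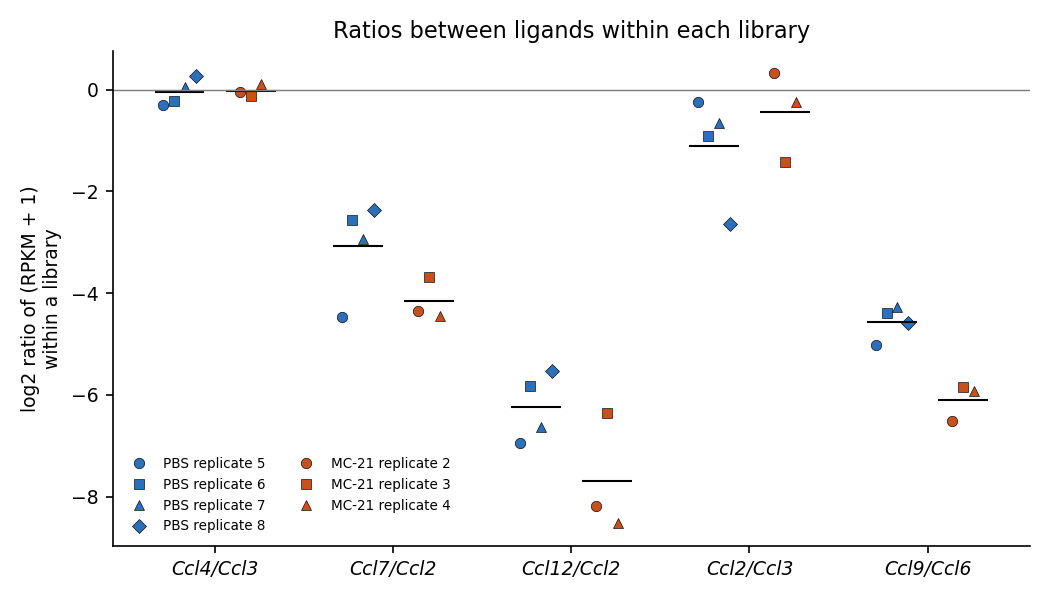
Log2 ratio of (RPKM + 1) between pairs of ligands within each library, with horizontal bars for the group means. Ccl4/Ccl3 keeps within -0.31 to 0.27, and the other ratios span 2.11 to 2.99 log2 units.

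Ccl5, or RANTES, a product of T and NK cells as well as of myeloid cells, had 53.1, 105, 63.0 and 43.7 RPKM in PBS replicates 5 to 8, and 46.9, 150 and 83.3 RPKM in MC-21 replicates 2 to 4. The groups overlapped, and MC-21 replicate 3 was highest of all. The difference was 0.42 (95% interval -0.46 to 1.29, adjusted p = 0.663 from limma), and without MC-21 replicate 3 it was -0.0013. The libraries that were highest in Ccl5, MC-21 replicate 3 and PBS replicate 6, were also highest in the summed RPKM of 9 markers of T and NK cells, with 22.3 and 16.7 RPKM. The other 5 libraries had sums between 8.15 and 15.3 RPKM. In MC-21 replicate 3 most of the sum was Gzma (10.7 RPKM) and Nkg7 (9.27 RPKM), genes of cytotoxic cells. The T cell gene Cd3d was at its lowest of the 7 libraries there (0.945 RPKM), and Cd3g, Cd4 and Ncr1 were listed at 0. Cd3e (0.875 RPKM) and Klrb1c (0.239 RPKM) were at their highest of the MC-21 libraries, and Cd8a (0.201 RPKM) at its lowest of them. This library was the shallowest, and Cd3g and Ncr1 were also listed at 0 in other libraries. The part of T and NK cells in the Ccl5 values was not tested.

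Ccl6, which mouse myeloid cells express at a high level, had the narrowest range of the members, 2.04-fold over the 7 libraries. It had 671, 698, 909 and 446 RPKM in PBS replicates 5 to 8, and 780, 730 and 638 RPKM in MC-21 replicates 2 to 4. All MC-21 values lay inside the PBS range. The difference was 0.11 (standard error 0.22, 95% interval -0.37 to 0.60, adjusted p = 0.843 from limma).

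Ccl9, or MIP-1 gamma, another CCR1 ligand of myeloid cells, was the only member whose groups did not overlap. It had 19.6, 32.1, 46.4 and 17.5 RPKM in PBS replicates 5 to 8, and 7.54, 11.7 and 9.56 RPKM in MC-21 replicates 2 to 4. Every MC-21 library lay below every PBS library, which held for 1 of the 10 members and for 13.3% of all genes, or 10.2% of all genes in this direction and 3.1% in the other. The difference was -1.41 (standard error 0.32, 95% interval -2.13 to -0.69, adjusted p = 0.0952 from limma), and the exact permutation test gave p = 0.0286, which is the lowest value it can give here. The estimated reads were 163 to 371 in PBS libraries and 56.0 to 80.9 in MC-21 libraries. Ccl9 kept a negative difference in all 14 alternatives, between -1.61 and -1.16, and its adjusted p stayed between 0.0776 and 0.437. The log2 ratio of Ccl9 to Ccl6 was -4.57 ± 0.33 (SD, n = 4) in PBS and -6.09 ± 0.37 (SD, n = 3) in MC-21 libraries, without overlap (exact permutation p = 0.0286, 0.143 after Benjamini-Hochberg adjustment over 5 ratios). This ratio was chosen after the values were seen, and the adjustment does not cover that choice. It uses the same Ccl9 values, so it is not a separate test of Ccl9.

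The sum of the 8 monocyte markers, given above, did not overlap between the groups either. The same held for markers of B cells (10.7 to 29.9 RPKM in PBS and 6.14 to 9.73 RPKM in MC-21 libraries) and of platelets (85.7 to 251 and 45.1 to 71.6 RPKM). The platelet sum was mostly Pf4, with 75.0 to 244 RPKM in PBS and 36.7 to 60.9 RPKM in MC-21 libraries. Of the 4 platelet markers, 2 had a difference below 0. Itga2b was higher in MC-21 libraries without overlap (2.30 to 3.26 RPKM in PBS and 3.56 to 4.32 RPKM in MC-21 libraries), and Gp9 had a difference of 0.66. Of the monocyte markers, 4 passed the test with a lower value in MC-21 neutrophils (Ccr2, Fcgr1, F13a1 and Ms4a6c), and all 8 had a difference below 0, with a median of -1.41. None of the 8 was at 0 in all libraries. Of 10 markers of macrophages and Kupffer cells, 7 were tested and 1 passed (Trem2), and their sum was 104 to 141 RPKM in PBS and 48.2 to 113 RPKM in MC-21 libraries. The part of these cells in the Ccl9 values was not tested. In sorted bulk samples, fewer cells of a type and less RNA per cell cannot be told apart.

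The promoters of Ccl9 and Ccl6 are shown because the groups overlapped for Ccl6 and not for Ccl9. The RefSeq promoter table, on GRCm38.p6, held 5 of the 10 members (Ccl3, Ccl6, Ccl9, Ccl12 and Ccl22). The 250 bases before the start, in the direction of transcription, are from chr11:83578637-83578886 for Ccl9 and chr11:83593088-83593337 for Ccl6, both on the minus strand, with the motif matches in capitals.
Ccl9: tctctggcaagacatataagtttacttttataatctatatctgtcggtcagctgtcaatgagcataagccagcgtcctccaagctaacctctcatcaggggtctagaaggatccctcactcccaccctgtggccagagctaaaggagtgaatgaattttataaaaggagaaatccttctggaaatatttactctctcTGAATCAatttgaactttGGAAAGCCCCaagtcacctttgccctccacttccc
Ccl6: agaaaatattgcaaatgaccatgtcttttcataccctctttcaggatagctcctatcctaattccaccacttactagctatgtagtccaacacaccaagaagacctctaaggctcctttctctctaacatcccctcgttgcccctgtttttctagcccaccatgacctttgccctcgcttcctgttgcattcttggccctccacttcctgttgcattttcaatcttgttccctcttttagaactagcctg
The following motifs were searched in the windows of 300 bases (250 before and 50 after the start) on both strands, the NF-kappaB motif, AP-1 (TGANTCA), and the STAT6 and ISRE motifs. Ccl9 held an AP-1 match from -53 to -47 and an NF-kappaB match from -35 to -26 relative to the start, and the other 4 members held none of these motifs. Of 27025 promoters, 7.93% held the AP-1 and 4.35% the NF-kappaB motif, while 6.99% held the STAT6 and 3.49% the ISRE motif. The motifs were chosen after the values were seen, and a match of letters is not evidence of binding.

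Among the ligands of CCR3 and CCR4, Ccl24, or eotaxin-2, was set by 1 library. It had 4.21, 66.2, 9.92 and 14.1 RPKM in PBS replicates 5 to 8, and 7.38, 3.41 and 8.65 RPKM in MC-21 replicates 2 to 4. The groups overlapped, and PBS replicate 6 was the highest library, with the next at 14.1 RPKM. The estimated reads of that library were 284, against 7 to 72 in the others. The difference was -1.13 (standard error 0.72, 95% interval -2.74 to 0.48, adjusted p = 0.507 from limma) and -0.42 without PBS replicate 6.

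Ccl22, or MDC, was the least abundant member. It had 1.40, 2.16, 2.70 and 0.418 RPKM in PBS replicates 5 to 8, and 1.70, 1.04 and 0.199 RPKM in MC-21 replicates 2 to 4. The groups overlapped, and the values rest on an estimated 1 to 13 reads per library. These numbers of reads use a length of 1814 bases, which was fitted to the same values after the annotated 2216 bases did not give whole reads. The difference was -0.42 (95% interval -1.28 to 0.44, adjusted p = 0.654 from limma), with a value of -0.10 without MC-21 replicate 4 and of -0.81 with a pseudocount of 0.1.

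Leaving out libraries in turn moved the differences of Ccl5, Ccl6, Ccl7 and Ccl12 across 0 but not those of Ccl2, Ccl3, Ccl4, Ccl9, Ccl22 and Ccl24. Without MC-21 replicate 3, the groups did not overlap for 4 members, with Ccl2, Ccl3 and Ccl4 higher and Ccl9 lower in MC-21 neutrophils, where 23.4% of all genes did not overlap. Without PBS replicate 6 this held for Ccl3 and Ccl9, against 22.0% of all genes, and without PBS replicate 5 for Ccl9 and Ccl24, against 18.0%. In each of these fits 0 of 10 members had an adjusted p under 0.05.

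**Figure D4:**
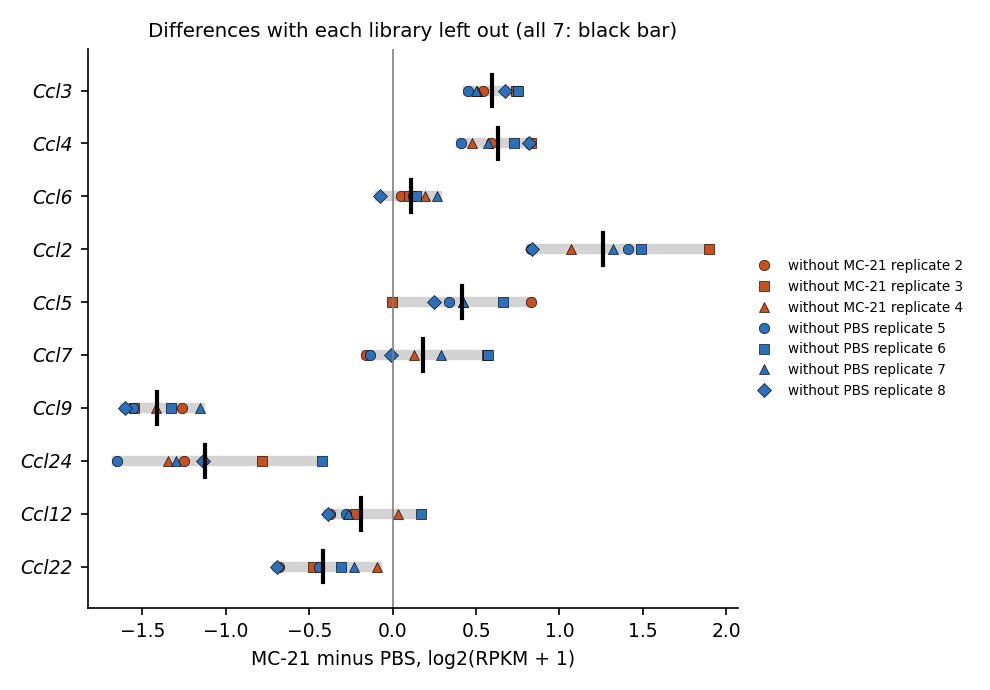
Difference, MC-21 minus PBS, on log2(RPKM + 1) for each ligand with 1 library left out at a time (points), its span (grey) and the value from all 7 libraries (black bar). Ccl2 ranges from 0.83 to 1.89 and Ccl24 from -1.65 to -0.42, and Ccl9 from -1.61 to -1.16.

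The genes whose profiles were nearest to the 3 most abundant members were sought among the 4127 that averaged 10 RPKM or more. Nearest to Ccl3 were Cd9, a tetraspanin, and Bhlhe40, a transcription factor, with root mean square differences of 0.10 and 0.16 over the 7 libraries, both closer to it than Ccl4 (0.19). For Ccl4 they were Nek6, a kinase, and Cd9, with 0.21 and 0.23, both farther from it than Ccl3. For Ccl6 they were Anxa1, an annexin, and Mgst1, a glutathione transferase, with 0.08 and 0.13.

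The receptors of these ligands were in part scarce in the sorted cells. Ccr1, the receptor of Ccl3, Ccl5, Ccl6 and Ccl9, had 18.4, 42.2, 10.2 and 18.0 RPKM in PBS replicates 5 to 8 and 55.1, 15.8 and 15.6 RPKM in MC-21 replicates 2 to 4, a difference of 0.28 (adjusted p = 0.833 from limma) with overlapping groups. Ccr2, the receptor of Ccl2, Ccl7 and Ccl12, which is also 1 of the monocyte markers and the antibody's target, had 1.92, 3.26, 2.31 and 2.18 RPKM in PBS libraries and 0.390, 0 and 0.200 RPKM in MC-21 libraries. It fell by 1.51 on the log2 scale (standard error 0.23, adjusted p = 0.0263 from limma), the only one of the 4 CC receptors tested to pass, and its adjusted p was between 0.0222 and 0.228 over 13 alternatives, of which 8 ended the call. Ccr3, the receptor of Ccl24, stayed at or below 0.384 RPKM in every library, under the level tested. Ccr4, the receptor of Ccl22, was not analysed here. Ccr7 had 2.01 to 7.81 RPKM in PBS and 0.992 to 1.46 RPKM in MC-21 libraries without overlap (difference -1.22, adjusted p = 0.156 from limma). Ccrl2, a related receptor that binds chemerin, was the most abundant with 405 to 793 RPKM (difference 0.29, adjusted p = 0.559).

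The atypical receptors, which bind chemokines without the usual signalling, gave 0 of 3 tested genes at an adjusted p under 0.05 in limma. All 3 had an unadjusted p under 0.05, against 14.7% of all genes. The mean in MC-21 neutrophils was higher for Ackr2 and lower for Ackr1 and Ackr3. Ackr2, a scavenger of inflammatory CC chemokines, had 9.01, 12.4, 7.24 and 6.03 RPKM in PBS replicates 5 to 8 and 21.5, 17.9 and 18.3 RPKM in MC-21 replicates 2 to 4, so that the groups did not overlap (difference 1.10, standard error 0.23, adjusted p = 0.0739 from limma). Its adjusted p was 0.0314 to 0.247 over 14 alternatives, under 0.05 in 2 of them (0.0457 with each library centred on its median and 0.0314 without PBS replicate 6). Ackr1, a chemokine-binding protein of venular endothelium and red cells, had 43.6 to 64.3 RPKM in PBS and 16.8 to 40.4 RPKM in MC-21 libraries, also without overlap (difference -1.04, adjusted p = 0.145). Ackr3 had a difference of -1.12 with overlapping groups (adjusted p = 0.202).

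**Figure D5:**
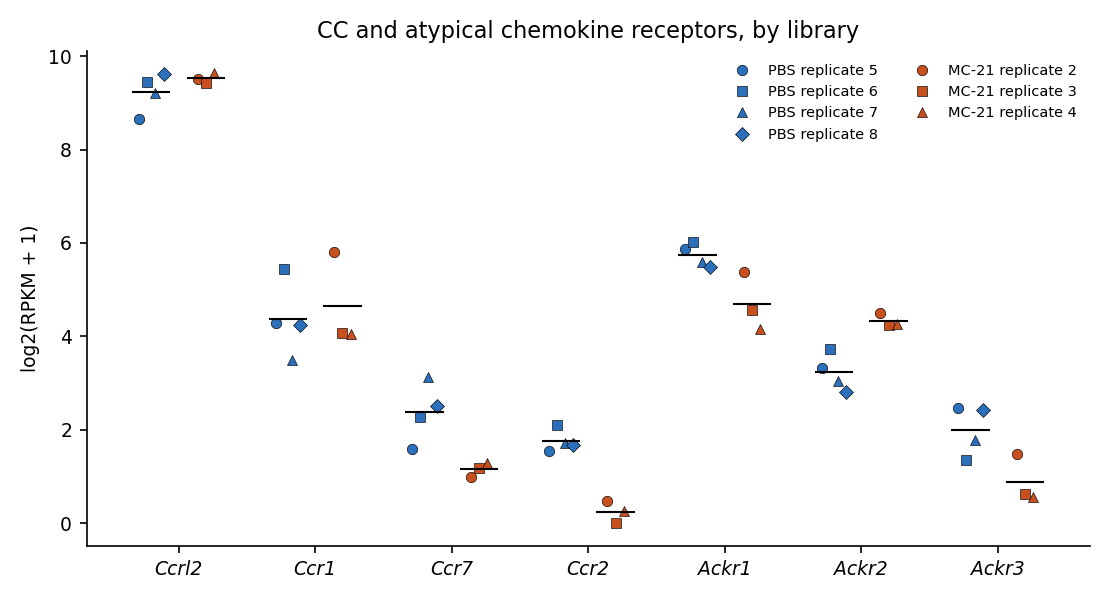
Log2(RPKM + 1) of 4 CC receptors and 3 atypical receptors in each PBS (blue) and MC-21 (orange) library, with horizontal bars for the group means. Ccrl2 is highest, Ccr2 is near 0 in the 3 MC-21 libraries, and Ackr2 is higher and Ackr1 lower in MC-21 libraries without overlap between the groups.

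The other CC ligands were scarce beside the members. Of 14 such genes 10 were in the table and 6 were tested, their means over the 7 libraries were at most 5.00 RPKM, and their sum was 12.3 to 35.5 RPKM in PBS and 10.6 to 17.9 RPKM in MC-21 libraries. None of the 6 passed limma's test at an adjusted p under 0.05. An unadjusted p under 0.05 was reached by 2, Ccl21a and Ccl21b, both with lower means in MC-21 neutrophils, against 14.7% of all genes (11.2% lower). How any reads shared between the near-identical Ccl21 copies were handled is not given, so their values are uncertain. Ccl21b and Ccl21c moved in a fixed proportion, with the same 14.4-fold range over the 7 libraries, and are not separate measurements. Of the genes that induce the ligands or carry the signal, 0 of 19 inducers and receptors, 0 of 19 transcription factors, 0 of 8 regulators of mRNA decay and 0 of 5 proteases that trim chemokines had an adjusted p under 0.05 in limma. At an unadjusted p under 0.05 there were 3, 5, 1 and 0, where 14.7% of all genes reached this level. The transcription factors among these included Irf7 and Nfkbia with higher and Nfkb2 and Relb with lower means in MC-21 neutrophils. The largest differences in these lists included Irf7, a factor of interferon responses (1.36, adjusted p = 0.0697), Cd14, a co-receptor for endotoxin (1.11, adjusted p = 0.0739), and Zc3h12a, an endonuclease that degrades cytokine mRNA (0.85, adjusted p = 0.109). Il1b, whose product induces several of the ligands, was at 5868 to 8005 RPKM in all libraries (difference 0.09, adjusted p = 0.799).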

How the data were processed

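RNA-seq (3′ libraries, Illumina NextSeq) was made from neutrophils of 7 livers, 1 library per liver. The authors mapped reads to mm9 with HISAT 0.1.5, used SAMtools, and deposited RPKM values per gene from Partek 6.6. The annotation, the handling of shared reads, strand and molecular barcodes are not given in the sources used here. RPKM values are not counts, so count tests were not run. The 16047 genes were limited to the 9594 that averaged 1 RPKM or more, and MC-21 minus PBS was fitted on log2(RPKM + 1), a scale that understates differences of low genes, with limma 3.58.1 (lmFit, eBayes with trend) in R 4.3.3, adjusted by Benjamini-Hochberg over all 9594 genes at 0.05. Single values were compared by a two-sided exact permutation test of the group means over the 35 ways to form groups of 4 and 3 (smallest p 0.0286). The p-values measure the spread between these 7 livers.

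Depth was estimated from the steps of low RPKM values and annotated transcript lengths. By this estimate 72.6 to 75.2% of low values in a library fell no more than 0.1 reads from a whole number. Read numbers cover counting error only and are estimates. The limma step was tested on simulated data. Alternatives were a pseudocount of 0.1, no filter, a mean of at least 5 RPKM, centring, quantile normalization, limma without a trend, the unmoderated test on RPKM, and leaving out each library. The alternatives for receptors were set after seeing the data. The members and gene lists were chosen with earlier results of these data known. Named are all members, their receptors, and, from each other list, genes past the test and up to the 5 largest differences. Il1b, Nfkbia, Nfkb2, Relb, Csf1r, Ly6c2 and the monocyte and macrophage genes that passed the test were named after their values were seen. So were the single genes of neutrophils, of T and NK cells and of platelets. A few genes, 1 motif and 1 sequence are not reported here. Nearest profiles were the smallest root mean square differences of centred log2(RPKM + 1) values. Python 3.11.15, pandas 2.3.3, scipy 1.17.1 and matplotlib 3.10.9 were used.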

Additional observations from a re-analysis of the deposited data

Results flagged for a closer look

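Both values flagged came from PBS replicate 6, as single libraries far from the other 3 of their group by Dixon's ratio. Ccl24 had 66.2 RPKM in PBS replicate 6, against 4.21 to 14.1 RPKM in the other PBS libraries. Ccl12 had 6.72 RPKM there, from an estimated 12 reads, against 1.41 to 2.10 RPKM in the others. The ratio was computed for the PBS values of all 10 ligands, and chance alone marks about 1 in 20 such groups.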

How the results depend on the processing

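The count of members with an adjusted p under 0.05 was 0 under all 14 alternatives. The count over all genes, 60, was 6 when all genes were kept, 5 with the unmoderated test on RPKM, 53 to 74 under the other settings, and 9 (without PBS replicate 8) to 102 (without PBS replicate 6) with 1 library left out. The members whose groups did not overlap were 1 of 10, against 13.3% of all genes. With 1 library left out they were 1 to 4 (4 without MC-21 replicate 3), against 16.0 to 24.3% of all genes. The difference in the Ccl4 to Ccl3 ratio was -0.05 to 0.14 with 1 library left out, below 0 without PBS replicate 5 (-0.0462), PBS replicate 6 (-0.0219) or MC-21 replicate 4 (-0.0285). Other differences that changed direction were those of Ccl5 (range -0.0013 to 0.83) without MC-21 replicate 3, Ccl6 (-0.0763 to 0.27) without PBS replicate 8, Ccl7 (-0.16 to 0.57) without MC-21 replicate 2 (-0.16), PBS replicate 5 (-0.13) or PBS replicate 8 (-0.0095), Ccl12 (-0.39 to 0.17) without MC-21 replicate 4 (0.03) or PBS replicate 6 (0.17), and Ccr1 (-0.30 to 0.64) without MC-21 replicate 2 (-0.30) or PBS replicate 7 (-0.0096). The cause was not tested. Ccl12 and Ccl22 were not tested at a mean of at least 5 RPKM. No paired analysis was possible because the groups share no replicate numbers. With 4 and 3 livers, intervals of the members' differences are wide. The values of Ccl12 and Ccl22 rest on an estimated 1 to 13 reads per library, and the size of difference detectable there was not tested.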
